A study of Mus musculus with 6 samples.

Results

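The transporter set described here holds 10 genes, Slc1a5 and 9 of its exchange partners and relatives, among 53445 loci counted by RNA-Seq in LSK cells (lineage-negative, Sca-1+, c-Kit+ bone marrow cells, which contain the hematopoietic stem and progenitor cells). Slc1a5 was chosen by its read counts, which were higher in OgaVav-Cre than in wildtype cells, and the other 9 genes were picked for their roles in amino acid exchange, with their values in these libraries already known. Each gene was found by its symbol in the deposited table, where each symbol occurs once, and all 10 passed the filter on low counts. The OgaVav-Cre group is 3 female C57BL/6 mice of about 12 weeks that carry the floxed Oga allele (Oga fl/fl) and the Vav-iCre transgene, which deletes Oga throughout the hematopoietic lineage rather than in stem cells alone. The wildtype group is 3 female C57BL/6 mice of the same age. No treatment is given for either group, and at least 20000 sorted cells were collected per mouse. The question asked of these genes was whether the higher level of the glutamine transporter Slc1a5 was shared by the transporters that work with it or beside it.

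Cells take up glutamine through more than one kind of carrier. SLC1A5 (ASCT2) is a sodium-dependent exchanger that brings in glutamine while another neutral amino acid leaves, and SLC1A4 (ASCT1) is its closest relative. SLC38A1 and SLC38A2 import glutamine and other small neutral amino acids together with sodium, without exchange. SLC7A5 (LAT1) gives up cytosolic glutamine to import leucine and other large neutral amino acids, and it reaches the cell surface only when bound to the heavy chain SLC3A2 (CD98), which it shares with the light chains SLC7A6 and SLC7A7. Glutamine is also the nitrogen donor of the hexosamine pathway, whose product is used for O-GlcNAc, the sugar that OGA removes from proteins.

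A pair of short DNA motifs is known from promoters of nutrient-responsive genes, the E-box CACGTG, bound by Myc and related factors, and TGATGNAA, the C/EBP-ATF response element bound by ATF4. Both were searched on both strands in the promoters of the RefSeq table (GRCm38.p6), each from 250 bases before to 50 bases after a start site. The table has 13 promoters for 7 of the 10 genes and no entry for Slc1a5, Slc7a5 and Slc38a1. CACGTG was found in none of the 13, against 7.15% of all 32851 promoters in the table. TGATGNAA or its reverse complement was found in 3 of the 13, against 3.97% of all promoters in the table. These are 1 promoter of Slc1a4 and 2 overlapping promoters of Slc7a7. The sequences of the Slc1a4 promoter and of the Slc7a7 promoter that holds more matches are shown, because only these genes of the 7 have a match. They were found once each in the mm9 sequence, the build of the deposited table, on the minus strand at chr11:20232713-20232966 and chr14:55036775-55037031. Each runs 5′ to 3′ from 250 bases before the start site to the end of the last match, and capitals mark the matches.
Slc1a4: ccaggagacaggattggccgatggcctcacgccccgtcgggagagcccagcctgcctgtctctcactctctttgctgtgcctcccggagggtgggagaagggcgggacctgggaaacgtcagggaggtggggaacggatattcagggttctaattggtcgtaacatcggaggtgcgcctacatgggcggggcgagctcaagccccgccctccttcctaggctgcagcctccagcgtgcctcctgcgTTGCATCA
Slc7a7: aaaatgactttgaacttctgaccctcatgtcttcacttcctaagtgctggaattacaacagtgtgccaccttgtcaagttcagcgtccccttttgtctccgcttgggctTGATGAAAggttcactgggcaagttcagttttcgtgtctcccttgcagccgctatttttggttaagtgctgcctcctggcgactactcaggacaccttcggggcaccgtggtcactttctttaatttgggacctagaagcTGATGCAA
In Slc1a4 the match reads TTGCATCA, on the reverse strand of the motif, and begins 4 bases before the start site. In Slc7a7 the first match begins 141 bases before the start site and the second 1 base before it. Of the 5 start sites listed for Slc7a7, the one shown lies 245 bases upstream of the counted locus, and the second match also lies within the promoter of the next start site. A match describes letters in these windows and does not show that a factor binds there.

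Oga, listed under its former symbol Mgea5, was at between 104 and 110 reads in the OgaVav-Cre libraries and between 2736 and 3164 in the wildtype libraries, so that each library matched its label. Library totals were between 19318056 and 27064389 reads, and 3 reads corresponded to between 0.109 and 0.156 CPM (read counts scaled to library size by the TMM method of edgeR and expressed per megaread). The LSK markers Kit, Cd34 and Flt3 were at 202 to 624 CPM in every library, while Slamf1, which marks the long-term stem cells, was at 2.79 to 5.07 CPM. Plasma cell transcripts varied widely within both genotypes. The share of reads on Ighm, Igkc and Igj was 9.88, 4.14 and 1.17% for the OgaVav-Cre mice, replicates 1 to 3 in that order, and 2.05, 5.48 and 1.36% for the wildtype mice, and 9 plasma cell markers summed to between 1742 and 12349 CPM in OgaVav-Cre and between 1812 and 8124 CPM in wildtype. The summed B cell markers were at 309 to 1491 and 307 to 1133 CPM, those of erythroid cells at 346 to 2608 and 582 to 878 CPM, those of granulocytes and monocytes at 618 to 2538 and 1068 to 1605 CPM, and those of T and NK cells at 64.9 to 207 and 62.4 to 123 CPM. None of the 59 markers measured passed the cutoffs, and those nearest 0 were Ly6g (0 to 3.90 CPM) and Cd3d (0.0396 to 6.71 CPM). In sorted bulk samples, fewer cells of a type and less RNA per cell cannot be told apart.

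Slc1a5 occupies chromosome 7 from 17366695 to 17383623 (mm9, plus strand) and was counted over 4156 bases in 9 exons. The OgaVav-Cre replicates had 2162, 3004 and 2481 reads of it, in the order 1 to 3, and the wildtype replicates 662, 569 and 943. After scaling, these were 95.9, 119 and 90.5 CPM in OgaVav-Cre cells and 31.0, 29.5 and 39.9 CPM in wildtype cells. The lowest OgaVav-Cre library was thus above the highest wildtype library, and the means were 102 ± 15.1 and 33.5 ± 5.61 CPM (SD, n = 3), a 3.04-fold difference. The log2 fold change was 1.60 (standard error 0.167), and leaving out any 1 of the libraries gave values from 1.48 to 1.75. Because this difference named the set, its values are a description. With the immunoglobulin share as a covariate this log2 fold change was 1.64, and likewise 1.64 without OgaVav-Cre replicate 1, the library with the largest share. In both fits Slc1a5 was no longer past the cutoffs (edgeR's adjusted p = 0.0607 and 0.227). In the reported fit its adjusted p was already close to the cutoff of 0.05 (edgeR's adjusted p = 0.0466).

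**Figure D1:**
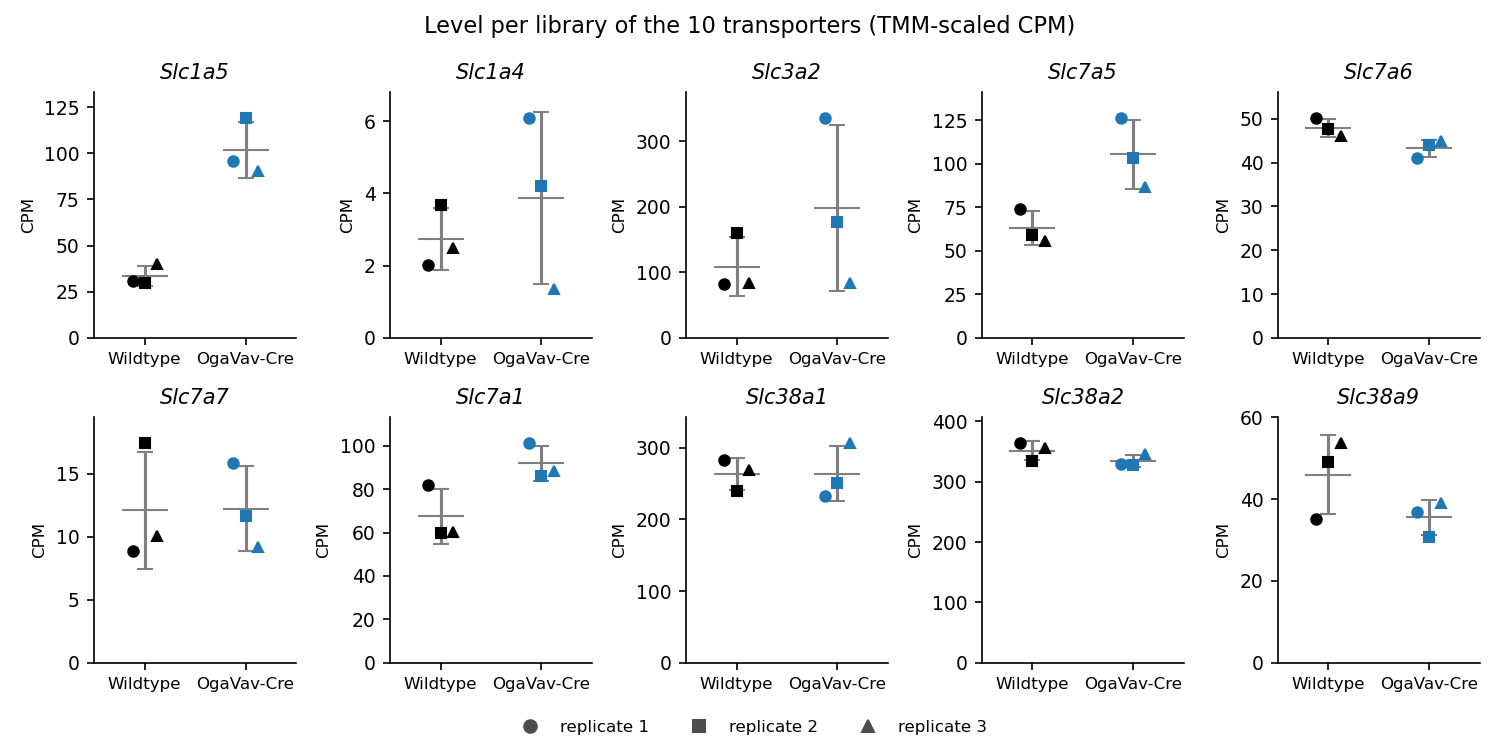
TMM-scaled CPM of the 10 transporters, 1 panel per gene with an axis that starts at 0, in wildtype (black) and OgaVav-Cre (blue) LSK cells. The symbols are the 3 replicates of each genotype and the grey bars the mean ± SD. The genotypes do not overlap for Slc1a5, Slc7a5 and Slc7a1, higher in OgaVav-Cre, and for Slc7a6, lower in OgaVav-Cre.

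Across the table the cutoffs (adjusted p under 0.05, log2 fold change beyond 1 in either direction) were passed by 1 locus higher in OgaVav-Cre (0.00454% of the 22032 loci tested), which is Slc1a5 itself, and by 6 loci that were lower (0.0272%). Slc1a5 did not pass them in 12 of 17 alternative fits. It passed in the other 5, among them the Wald test of DESeq2, which the study used. Over all 17 its log2 fold change was between 1.42 and 1.75. None of the other 9 transporters passed the cutoffs (quasi-likelihood test of edgeR, Benjamini-Hochberg adjustment over all loci tested). Their adjusted p-values were between 0.384 and 0.999, and their log2 fold changes were between -0.37 and 0.87 with a median of 0.01, beside a median of 0.00 over all loci tested. Of the 10 genes, 3 had an unadjusted p below 0.05 and were higher in OgaVav-Cre (Slc1a5, Slc7a5 and Slc7a1), beside 4.38% of all loci tested, and 0 were lower, beside 6.27%. The same 3 genes were higher without overlap of the genotypes, beside 7.5% of loci, and 1 gene, Slc7a6, was lower without overlap, beside 9.97%. As the genes were picked with these values known, nothing is read from the counts.

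Slc7a5, the light chain that exchanges glutamine for leucine, was higher in OgaVav-Cre without overlap of the genotypes but did not pass the cutoffs. It lies on chromosome 8 (124405046 to 124431594, minus strand) and had 2843, 2612 and 2372 reads in the OgaVav-Cre replicates and 1579, 1144 and 1312 reads in the wildtype replicates. These were 126, 103 and 86.5 CPM against 74.0, 59.3 and 55.5 CPM, so that all OgaVav-Cre libraries were above all wildtype libraries. The log2 fold change was 0.74 (standard error 0.176, 95% interval 0.33 to 1.15, edgeR's adjusted p = 0.384). With DESeq2's Wald test, Slc7a5 had a log2 fold change of 0.76 and an adjusted p of 0.0319, still under the fold cutoff. By that test 58 of 23344 loci (0.248%) were higher in OgaVav-Cre at an adjusted p below 0.05, and Slc1a5 and Slc7a5 were the members among them. Its log2 fold change was 0.63 with the immunoglobulin share as a covariate and from 0.60 to 0.88 when single libraries were left out.

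Slc3a2, the heavy chain of Slc7a5, did not differ beyond the spread between replicates. It lies on chromosome 19 (8781372 to 8797859, minus strand). Its reads were 7558, 4478 and 2315 in the OgaVav-Cre replicates and 1752, 3093 and 1973 in the wildtype replicates, or 335, 177 and 84.5 CPM against 82.1, 160 and 83.5 CPM. OgaVav-Cre replicate 3 was at the level of wildtype replicates 1 and 3, and the 3 highest libraries were those with the highest immunoglobulin shares (OgaVav-Cre replicates 1 and 2 and wildtype replicate 2). The log2 fold change was 0.87 (standard error 0.482, 95% interval -0.25 to 1.99, edgeR's adjusted p = 0.545). This interval holds both no difference and the 1.60 of Slc1a5. The log2 fold change was 0.27 with the immunoglobulin share as a covariate, 0.26 without OgaVav-Cre replicate 1 and 1.24 without OgaVav-Cre replicate 3. Plasma cells express SLC3A2 strongly, and the part of their RNA in the Slc3a2 reads was not tested.

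The other light chains were near the wildtype level or slightly below it. Slc7a6 (y+LAT2), which exchanges cationic for neutral amino acids, had 925, 1110 and 1229 reads in the OgaVav-Cre replicates and 1069, 918 and 1087 in the wildtype replicates. Scaled to library size these were 41.0, 43.9 and 44.8 CPM against 50.1, 47.6 and 46.0 CPM. The OgaVav-Cre libraries were all lower, by a small step, with a log2 fold change of -0.15 (standard error 0.110, 95% interval -0.40 to 0.11, edgeR's adjusted p = 0.638). Slc7a7 (y+LAT1), with the same kind of exchange, had 357, 295 and 251 reads against 189, 336 and 237 reads, or 15.8, 11.7 and 9.16 CPM against 8.86, 17.4 and 10.03 CPM. Its libraries overlapped throughout, and the log2 fold change was 0.01 (95% interval -0.71 to 0.74, edgeR's adjusted p = 0.990). The last 226 bases of Slc7a7 are shared with Oxa1l on the opposite strand, and reads there cannot be assigned to either gene.

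Light chain levels were also set side by side per length. Of the summed RPKM of the 6 light chain genes Slc7a5, Slc7a6, Slc7a7, Slc7a8, Slc7a10 and Slc7a11, Slc7a5 took 71.3, 68.9 and 64.5% in the OgaVav-Cre replicates and 58.8, 50.2 and 50.2% in the wildtype replicates. The groups did not overlap. This share contains a gene whose difference was already known and is given without a test. The ratio of light to heavy chain showed no such order. The 6 light chains together were at 67.9, 109 and 204% of the Slc3a2 RPKM in the OgaVav-Cre replicates. In the wildtype replicates they were at 197, 94.9 and 171%, and the groups overlapped. An exact permutation test gave a two-sided p of 0.8. With 3 libraries per genotype this test cannot go below 0.1, so nothing is concluded from it. The ratio was lowest in the libraries with the largest immunoglobulin shares.

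Slc7a1 (CAT1), which imports arginine and lysine on its own, was higher in OgaVav-Cre without overlap of the genotypes. It lies on chromosome 5 (149138986 to 149211480, minus strand) and had 2285, 2179 and 2424 reads in the OgaVav-Cre replicates and 1751, 1157 and 1428 reads in the wildtype replicates. These were 101, 86.2 and 88.4 CPM against 82.1, 60.0 and 60.4 CPM, and the lowest OgaVav-Cre library was only just above wildtype replicate 1. The log2 fold change was 0.45 (standard error 0.155, 95% interval 0.09 to 0.81), with an adjusted p of 0.423 in edgeR and 0.346 in DESeq2. Leaving out single libraries gave 0.37 to 0.61.

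**Figure D2:**
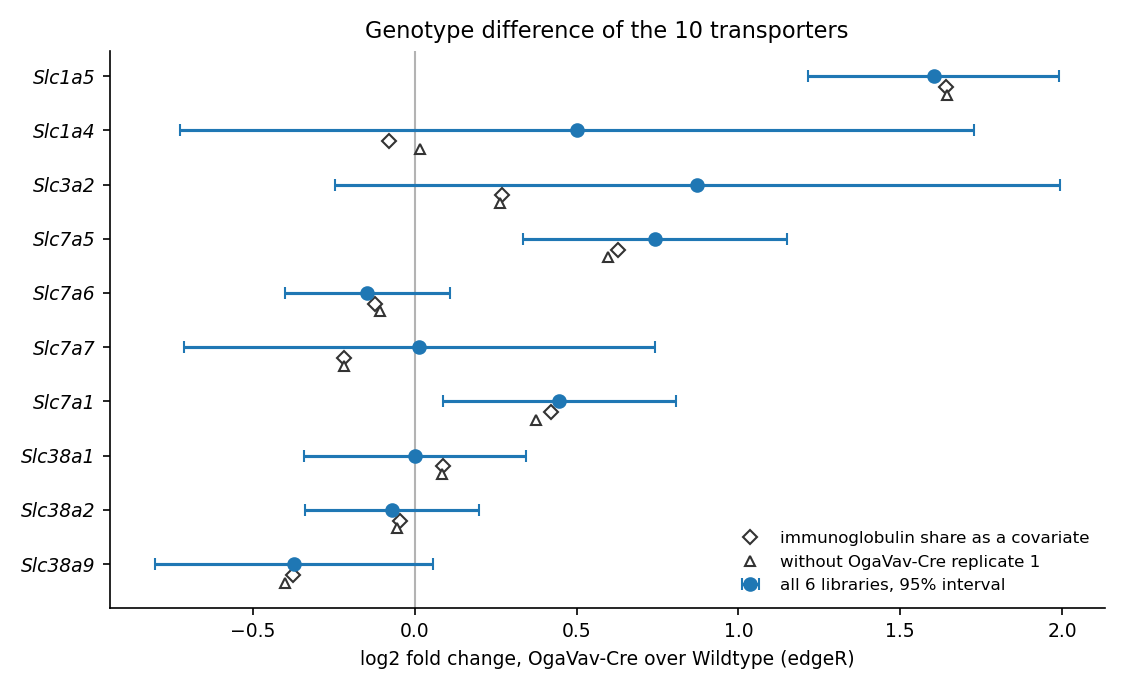
Log2 fold change of OgaVav-Cre over wildtype for the 10 transporters from edgeR, with 95% intervals over all 6 libraries (blue). Open diamonds give the same value with the immunoglobulin share as a covariate, and open triangles the value without OgaVav-Cre replicate 1. Slc1a5 stays at 1.60 to 1.64, whereas Slc3a2 moves from 0.87 to 0.27 and 0.26 and Slc1a4 from 0.50 to -0.08 and 0.02.

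Slc1a4, the closest relative of Slc1a5, was the least abundant gene of the set. It had 137, 106 and 37 reads in the OgaVav-Cre replicates and 43, 71 and 59 reads in the wildtype replicates, or 6.07, 4.19 and 1.35 CPM against 2.01, 3.68 and 2.50 CPM. OgaVav-Cre replicates 1 and 2 were above and replicate 3 below all wildtype libraries. The log2 fold change was 0.50 (standard error 0.529, 95% interval -0.73 to 1.73, edgeR's adjusted p = 0.744). Neither no difference nor the 3.04-fold difference of Slc1a5 lies outside this interval. The log2 fold change was -0.08 with the immunoglobulin share as a covariate and 0.91 without OgaVav-Cre replicate 3.

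The sodium-coupled glutamine importers were at nearly the same level in both genotypes. Both lie on chromosome 15. Slc38a1 had 5255, 6344 and 8398 reads in the OgaVav-Cre replicates and 6028, 4606 and 6354 reads in the wildtype replicates, or 233, 251 and 306 CPM against 282, 239 and 269 CPM. Slc38a2 had 7422, 8294 and 9505 reads against 7770, 6434 and 8411 reads, or 329, 328 and 347 CPM against 364, 334 and 356 CPM. The genotypes overlapped for both genes. The 95% intervals of the log2 fold change were narrow, from -0.34 to 0.34 around 0.00 for Slc38a1 and from -0.34 to 0.20 around -0.07 for Slc38a2, and both end well under the 1.60 of Slc1a5. Slc1a5 made up more of the summed RPKM of Slc1a5, Slc38a1 and Slc38a2 in the OgaVav-Cre replicates, with 30.3, 34.5 and 26.6%, than in the wildtype replicates, with 11.0, 11.6 and 14.1%. This share contains the gene that was chosen for its difference and is not tested either.

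Slc38a9, which carries arginine in the lysosome membrane and signals its presence to mTORC1, had a log2 fold change below 0. Its reads were 833, 775 and 1067 in the OgaVav-Cre replicates and 750, 947 and 1269 in the wildtype replicates, or 36.9, 30.7 and 38.9 CPM against 35.1, 49.1 and 53.7 CPM. Only wildtype replicate 1 lay within the range of the OgaVav-Cre libraries. The log2 fold change was -0.37 (standard error 0.185, 95% interval -0.80 to 0.06, edgeR's adjusted p = 0.512). The locus AK030857, which lies inside an intron of Slc38a9 on the same strand, had 17, 32 and 36 reads against 50, 39 and 92 reads and a log2 fold change of -1.30 (edgeR's adjusted p = 0.412). Whether the count of Slc38a9 contains the reads of AK030857 is not known. With these reads subtracted, as if it did, the log2 fold change of Slc38a9 was -0.33.

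Levels of different genes were compared per length, as the RPKM of the deposited table. In wildtype cells the order of the mean RPKM was Slc38a2 (35.4), Slc3a2 (21.2), Slc38a1 (16.0), Slc7a5 (15.9), Slc1a5 (7.20), Slc7a6 (5.53), Slc7a1 (5.22), Slc7a7 (4.30), Slc38a9 (2.28) and Slc1a4 (0.415). In this order the ranges of the libraries overlapped between Slc3a2 and Slc38a1, between Slc38a1 and Slc7a5, between Slc7a6 and Slc7a1 and between Slc7a1 and Slc7a7, so that these neighbours do not differ beyond their spread. In OgaVav-Cre cells Slc1a5 came after Slc3a2, Slc38a2 and Slc7a5 with a mean of 20.8 RPKM, and its range of 18.4 to 24.9 RPKM overlapped that of Slc7a5 above it (21.7 to 28.6 RPKM) and that of Slc38a1 below it (12.7 to 18.5 RPKM). Within each OgaVav-Cre library, however, Slc1a5 was below Slc7a5 and above Slc38a1. In wildtype cells Slc1a5, at 6.15 to 8.76 RPKM, lay apart from both. Slc3a2 had the highest mean in OgaVav-Cre cells, 36.5 RPKM, with a range from 16.5 to 59.1 RPKM that overlapped that of Slc38a2. Slc1a4 was last in both genotypes.

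**Figure D3:**
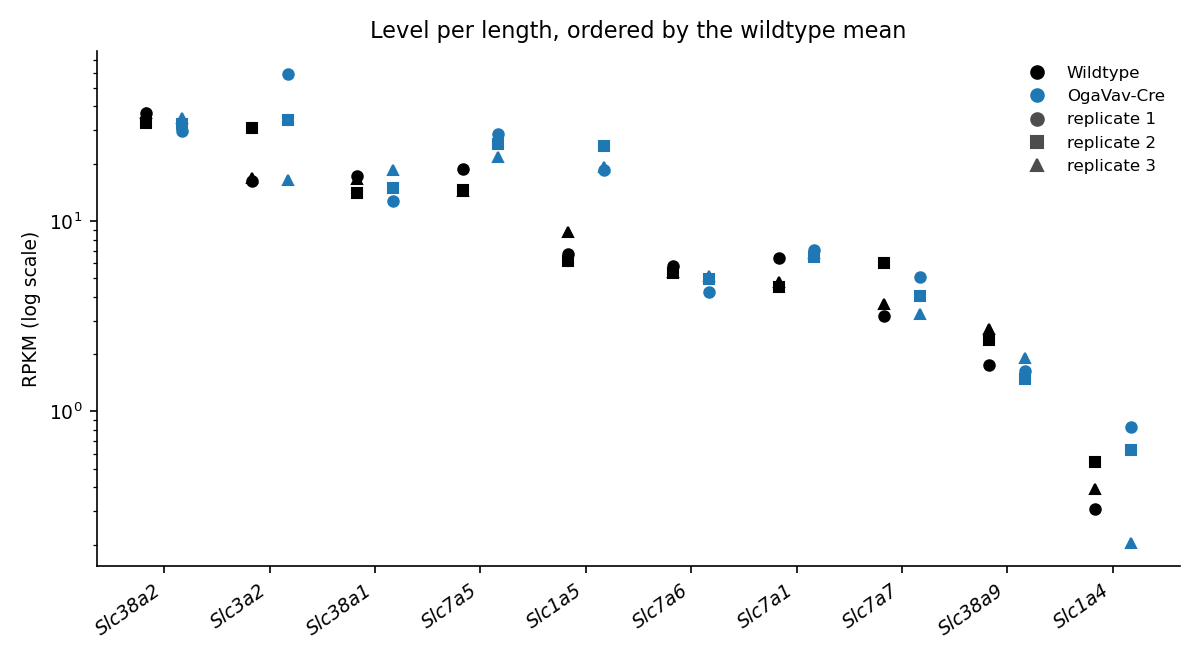
RPKM (log scale) of the 10 transporters in each library, ordered by the mean in wildtype cells. Black symbols are wildtype and blue symbols OgaVav-Cre, with 1 symbol shape per replicate. Slc1a5 moves from between Slc7a5 and Slc7a6 in wildtype cells to between Slc7a5 and Slc38a1 in each OgaVav-Cre library.

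Beyond these genes, 45 other amino acid transporters of the families SLC1, SLC3, SLC6, SLC7, SLC16, SLC36, SLC38 and SLC43 and of the lysosome were looked up, and 22 passed the filter on low counts. The 23 that did not were at or under 1.79 CPM in every library, and 8 of them had no read in any. None of the 22 passed the cutoffs with edgeR or DESeq2. Their log2 fold changes were above 0 for 9 genes and below 0 for 13, with a median of -0.21 and a range from -1.22 to 0.72. An unadjusted p below 0.05 was found for 0 of the 22 higher in OgaVav-Cre, beside 4.38% of all loci tested, and for 3 that were lower, beside 6.27%. The genotypes did not overlap for 1 gene that was higher, beside 7.5% of loci, and for 6 that were lower, beside 9.97%. None of the 22 had a log2 fold change as large as that of Slc1a5 in either direction. Among the genes under the filter, Slc6a7, named after its values were seen, had 9, 5 and 10 reads in the OgaVav-Cre replicates and 0 in each wildtype replicate.

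The 3 transporters with an unadjusted p below 0.05 were Slc36a4, a proton-coupled amino acid carrier, with a log2 fold change of -0.52 (95% interval -0.87 to -0.16), Slc38a6, a relative of the sodium-coupled importers, with -0.78 (-1.49 to -0.08), and Slc7a8 (LAT2), which like Slc7a5 is a light chain of Slc3a2 for large neutral amino acids, with -0.57 (-1.09 to -0.04). Their adjusted p-values from edgeR were 0.412, 0.446 and 0.450. Slc7a8 had 339, 402 and 586 reads in the OgaVav-Cre replicates and 561, 374 and 753 reads in the wildtype replicates, or 15.0, 15.9 and 21.4 CPM against 26.3, 19.4 and 31.9 CPM. The OgaVav-Cre libraries thus overlapped the wildtype libraries only at OgaVav-Cre replicate 3, and the value of this second leucine exchanger was on the other side of 0 from that of Slc7a5. Slc36a4 had 13.3, 15.4 and 16.1 CPM against 21.6, 19.4 and 23.1 CPM, without overlap. Slc36a1, a lysosomal carrier of small amino acids, and Ctns, the lysosomal cystine exporter, had log2 fold changes of -0.40 and -0.39, close to that of Slc38a9, and 95% intervals that just include 0 (-0.82 to 0.01 and -0.83 to 0.05). Other lysosomal transporters, named after their values were seen, were not all on that side: Pqlc2 was at -0.15, Slc38a7 at 0.18 and Slc15a4 at 0.38.

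Slc6a6, the taurine transporter, had the highest level per length of the list, 15.3 RPKM over the 6 libraries, followed by Slc38a10 with 14.3 RPKM and Slc43a2, a leucine carrier that works without exchange, with 6.12 RPKM. Slc6a6 was at 117, 141 and 131 CPM in the OgaVav-Cre replicates and 101, 115 and 116 CPM in the wildtype replicates, with a log2 fold change of 0.22 (edgeR's adjusted p = 0.545). Slc38a10 was at 0.18 and Slc43a2 at -0.22 on the log2 scale. Slc16a10, which lets aromatic amino acids pass, and Slc43a1, a relative of Slc43a2, were at 0.30 and -0.22 (edgeR's adjusted p = 0.543 and 0.553).

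**Figure D4:**
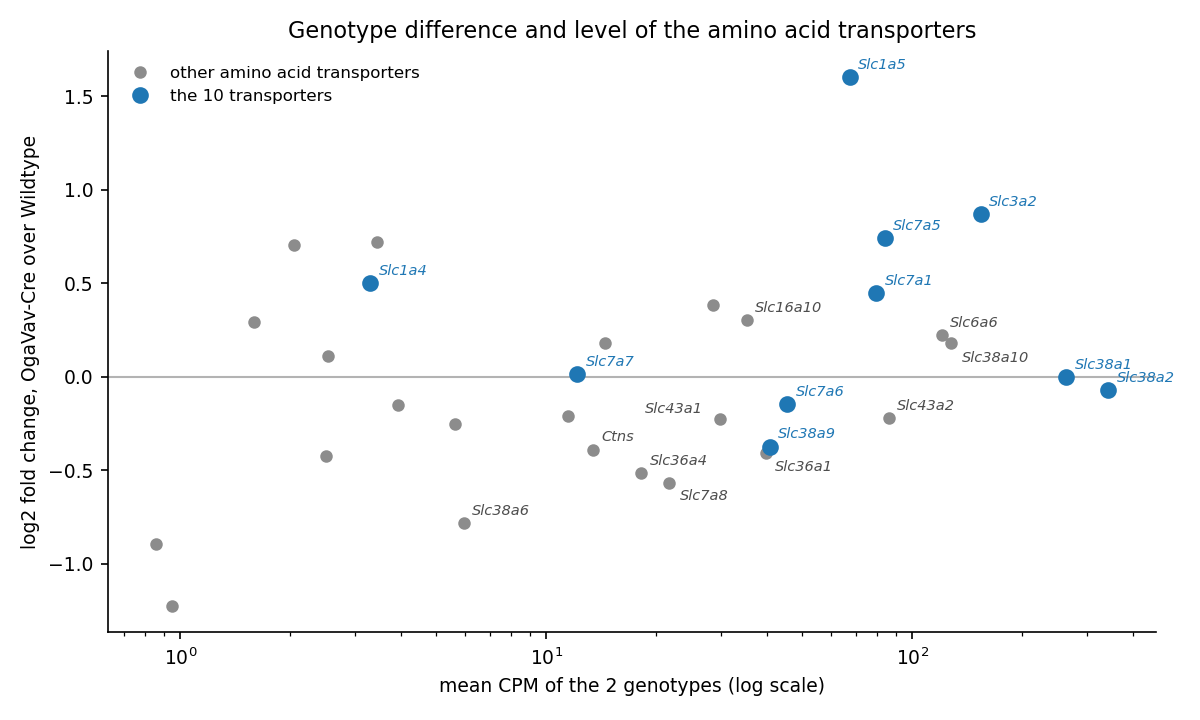
Log2 fold change of OgaVav-Cre over wildtype (edgeR) against the mean CPM of both genotypes (log scale) for the 10 transporters (blue) and the 22 other amino acid transporters that were tested (grey). Slc1a5 stands at 1.60, above all others, of which the next is Slc3a2 at 0.87.

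Other loci lie within the span of Slc1a5. LOC100503076 lies on the opposite strand within the 3′ part of Slc1a5 from 17381286 to 17383011, and 384 of its bases fall in Slc1a5 exons of the GENCODE annotation, 312 of them coding. It had 205, 346 and 248 reads in the OgaVav-Cre replicates and 62, 38 and 100 reads in the wildtype replicates, and a log2 fold change of 1.799 (standard error 0.333). As the library kit does not mark the strand, reads of LOC100503076 and Slc1a5 cannot be told apart. The locus 9530015I06Rik, in an intron of Slc1a5 on the same strand, had 21, 12 and 10 reads against 3, 2 and 4 reads. This intronic locus shares no base with the GENCODE exons of Slc1a5. Whether the count of Slc1a5 contains the reads of either locus is not known. With the reads of both subtracted, as if it did, the log2 fold change of Slc1a5 was 1.58. Of the loci inside other members, D930023I05Rik in Slc1a4 had at most 3 reads in a library, AK081472 in Slc7a1 at most 32 and AK030857 in Slc38a9 at most 92.

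No locus reported here within 100 kb of Slc1a5 passed the cutoffs. Strn4 and Prkd2, on its 3′ side, had log2 fold changes of 0.07 and -0.04 (standard errors 0.116 and 0.196). Ap2s1, on the 5′ side, was at 31.8, 31.6 and 31.0 CPM in the OgaVav-Cre replicates and 30.4, 22.1 and 21.8 CPM in the wildtype replicates, with a log2 fold change of 0.34 (95% interval -0.04 to 0.73). AK037272, inside Ap2s1, had 31, 3 and 29 reads against 26, 90 and 102 reads and a log2 fold change of -2.00 (edgeR's adjusted p = 0.449). The low loci Dact3 and 9330104G04Rik were at 0.10 and 0.61, and Ceacam9, 2700080J24Rik and Gng8 had at most 1 read in any library.

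Single loci were also compared with the pattern of Slc1a5, as the root mean square difference of the centred log2 CPM over the 6 libraries. The comparison covered 18992 tested loci with a mean of at least 1 CPM that do not overlap Slc1a5. The 5 nearest loci were Ptgir (0.247), AK038490 (0.266), Rwdd2a (0.289), Tnfsf8 (0.302) and 4933408J17Rik (0.308). Ptgir, the prostacyclin receptor, lies on the same chromosome, 108216 bases beyond the end of Slc1a5, just outside the window of 100 kb. It had 86, 139 and 157 reads in the OgaVav-Cre replicates and 27, 25 and 35 reads in the wildtype replicates, or 3.81, 5.50 and 5.73 CPM against 1.27, 1.30 and 1.48 CPM, a log2 fold change of 1.89. Ptgir did not pass the cutoffs with edgeR (adjusted p = 0.210), whereas DESeq2's Wald test gave an adjusted p of 0.000365. As Ptgir was found by its likeness to Slc1a5, these values are a description. The other 4 loci lie on chromosomes 4, 9 and 10. Of the members, Slc7a5 was 152nd and Slc7a1 847th in this order, and the other 7 were between 7317th and 14647th. The measure favours genes with a large difference between the genotypes and is a description over 6 libraries.

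**Figure D5:**
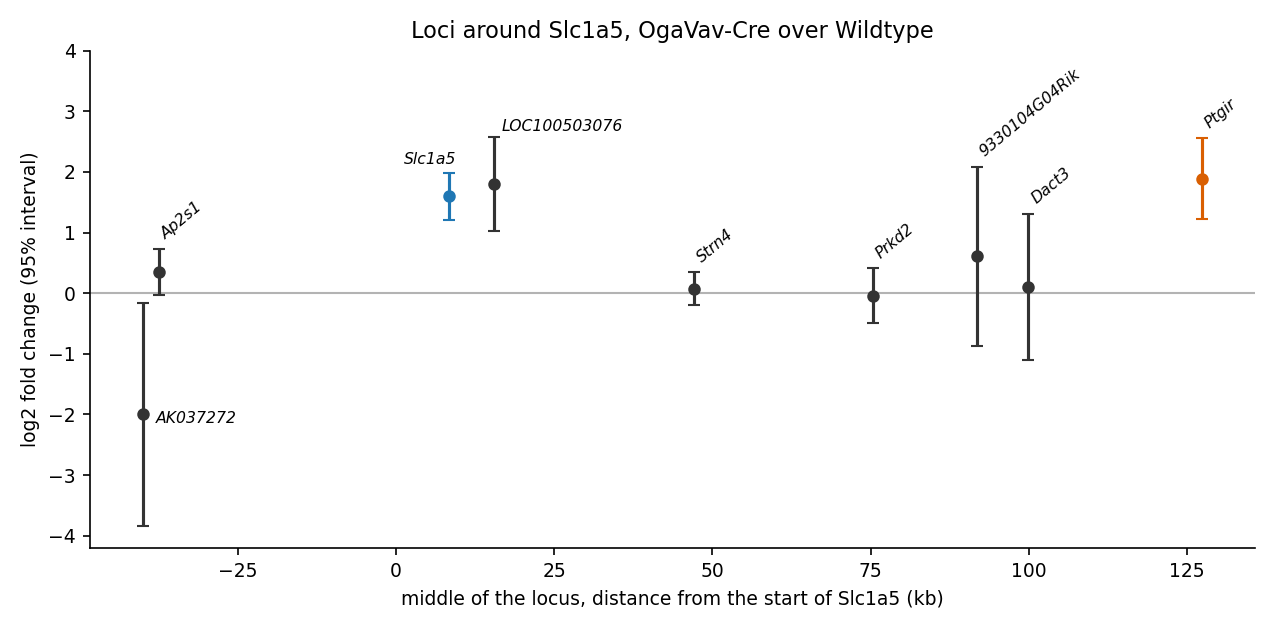
Log2 fold change of OgaVav-Cre over wildtype (edgeR, 95% intervals) of Slc1a5 (blue), of tested loci within 100 kb of it that the text names (dark grey) and of Ptgir (orange), by the distance of the middle of each locus from the start of Slc1a5. Between Slc1a5 and Ptgir, Strn4 and Prkd2 lie at 0.07 and -0.04.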

How the data were processed

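Poly(A) RNA-Seq of sorted LSK cells from 3 OgaVav-Cre and 3 wildtype mice was analyzed, with the genotype and number of each library taken from its label. Single-end reads of 50 bp were placed on mm9 and counted per locus by the authors in Genomatix, and the submitters' processing notes name CASAVA 1.8.2. The version of the aligner is not given in the sources used here. The deposited counts are whole reads per locus. The deposited RPKM divide each count by the locus length and by a divisor per library, which was 1.12 to 1.19 times the summed counts. The table also holds 6 columns of normalized expression per sample, whose definition is not stated, and the authors' own fold changes, p-values and regulation calls from DESeq2, and none of these were used.

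Loci named by an Ensembl gene number were matched to symbols. Overlapping loci were kept as listed. Counts were fitted in R 4.3.3 with edgeR 4.0.16 (TMM, filterByExpr, glmQLFit and glmQLFTest, genotype only), and p-values were adjusted over all 22032 loci tested. The cutoffs were those of the study. CPM are TMM-scaled counts, and SD describes the spread between 3 mice per genotype. Standard errors and 95% intervals are those of the log2 fold change, derived from edgeR's quasi-likelihood test. Alternatives were run with DESeq2 1.42.0 and limma 3.58.1, and the fits were tested on simulated data. The remaining steps were done in Python 3.11.15 with matplotlib 3.10.9, scipy 1.17.1, numpy 2.4.6 and pandas 2.3.3. Promoters are from RefSeq (GRCm38.p6) and were matched to mm9.

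The members and the lists were chosen with earlier results of these data known. Named were the members, loci overlapping them, loci within 100 kb of Slc1a5, the 8 other transporters with the smallest unadjusted p and the 3 with the highest RPKM, the 5 loci nearest to the pattern of Slc1a5, Oga and the most and least abundant markers. Any further gene was picked once its values had been seen. A locus near Slc1a5 is not reported here.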

Additional observations from a re-analysis of the deposited data

How the results depend on the processing

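Over 17 alternatives, the log2 fold change of Slc1a5 was between 1.42 and 1.75. It passed both cutoffs in 5 of them. Without OgaVav-Cre replicate 3 its adjusted p was 0.0431, and without each of the other 5 libraries it was above 0.05, up to 0.227. The number of members past the cutoffs and higher in OgaVav-Cre was therefore 1 in the reported fit and 0 with at least 10 reads in every library, limma-voom, RPKM with limma-trend at a pseudocount of 0.1 or 1, the immunoglobulin share as a covariate, and both libraries with the highest immunoglobulin share of their genotype left out, an alternative added after seeing the data. With each library left out it was between 0 and 1. No alternative gave a member other than Slc1a5 past the cutoffs, or any of the other amino acid transporters in either direction. Whether the replicate numbers pair the samples is not settled by the correlations between libraries of the 2 genotypes. These were -0.0814, 0.260 and 0.316 for same-numbered libraries and from -0.381 to 0.206 for the others. With the replicate block, Slc1a5 had a log2 fold change of 1.61 and an adjusted p of 0.116, the members past the cutoffs were 0, and 2 loci were higher.

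The median log2 fold change of the members, 0.23, was 0.0207 with the immunoglobulin share as a covariate, 0.0456 with RPKM at a pseudocount of 1, and between 0.0504 and 0.375 with each library left out, where 0.0504 was the value without OgaVav-Cre replicate 1. Among all loci, those past the cutoffs and higher numbered 1 in the reported fit, 4 without a filter on low counts, 35 with DESeq2, 2 with the immunoglobulin share as a covariate, 0 with at least 10 reads, limma-voom, RPKM and both high-immunoglobulin libraries left out, and 0 to 3 with each library left out. Those lower numbered 6, 17 without a filter, 80 with DESeq2, 3 with both high-immunoglobulin libraries left out and 3 to 6 with each library left out. For these changes the cause was not tested. The order of levels per length was computed from the deposited RPKM, which for Slc7a5, Slc7a6, Slc7a1 and Slc38a2 were lower than TMM-scaled counts divided by locus length by more than 1 SD. As no member's symbol repeats, summing loci of 1 symbol gave no further value. Slc1a4, with 37 to 137 reads, is the member whose difference is least determined, with a standard error of 0.529. It is followed by Slc3a2 with 0.482, at 1752 to 7558 reads.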
